A study of Mus musculus with 6 samples.

Results

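Macrod2, Gpc6, Ctnna3, Cdk14, Lass6 and Abcd3 are 6 genes at which several captured regions held more reads at postnatal day 1 (P1) than at postnatal day 14 (P14) in the mouse ventricle. The genes were chosen from that contrast, so all differences between the ages at these genes are given here as a description and not as a test of it. Every region carrying a symbol that matched exactly was taken, each position was counted once, and the regions were ordered along each gene. This gave 131 of 213957 distinct regions: 41 at Gpc6, 30 at Ctnna3, 21 at Cdk14, 19 at Macrod2, 13 at Lass6 and 7 at Abcd3. All 131 counted as peaks, because regions that carry a gene name were taken as such. Peaks are short regions, mostly of denser reads, set between long stretches of lower density. Lass6 is the older symbol of Cers6, under which RefSeq lists it.

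The libraries came from male C57BL/6 mice, 3 at P1 and 3 at P14, described by the submitters as biological replicates. The source is named as cardiac left ventricle, while the protocol describes ventricles freed of the atria with the septum kept. No source used here says whether a library held 1 animal or several. The assay was MBD-seq: sheared DNA was passed over a methyl-CpG binding protein domain, which retains fragments with methylated CpG sites, and what it retained was sequenced. No cell type was purified, and the assay holds no expression level against which the tissue could be checked. In whole tissue, a smaller share of cells carrying a methylated site and less methylation within each cell cannot be told apart.

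DNA methylation at CpG sites is copied at each cell division and is abundant along the bodies of mammalian genes, while most CpG-rich gene starts lack it. In the days after birth heart muscle cells largely stop dividing, change their metabolism and grow, and the share of other cell types in the ventricle changes too. Very long genes hold large introns, so most peaks in them lie far from any gene start. The label of these genes as long held for 5 of the 6. By RefSeq spans of GRCm38.p6, Macrod2 extends over 1997.7 kb, Ctnna3 over 1573.6 kb, Gpc6 over 1054.6 kb, Cdk14 over 577 kb and Lass6 over 253 kb, but Abcd3 over only 56.4 kb.

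The gene starts that could be matched were outside the captured peaks, as most starts are. RefSeq promoter windows, from 250 bases before to 50 bases after a start, were matched for 5 of the 6 genes (Macrod2, Ctnna3, Cdk14, Cers6 and Abcd3), with 9 windows in all. None of the 9 overlapped a peak. Among all 32851 mouse windows of this length 7.58% did, and among the 8701 windows with 20 or more CpG sites 1.10% did. With so few windows, and with the Macrod2 windows overlapping each other, nothing particular to these genes is read from this. 4 of the 9 are shown, 3 CpG-rich starts with a peak of the gene within 5 kb and 1 CpG-poor start for contrast. They are given 5′ to 3′ on the strand of the gene (GRCm38.p6), with every CG dinucleotide, the letters searched for, in capitals. A CG reads the same on both strands, and 94.6% of all windows held at least 1.
Abcd3, minus strand, chr3:121815253-121815552: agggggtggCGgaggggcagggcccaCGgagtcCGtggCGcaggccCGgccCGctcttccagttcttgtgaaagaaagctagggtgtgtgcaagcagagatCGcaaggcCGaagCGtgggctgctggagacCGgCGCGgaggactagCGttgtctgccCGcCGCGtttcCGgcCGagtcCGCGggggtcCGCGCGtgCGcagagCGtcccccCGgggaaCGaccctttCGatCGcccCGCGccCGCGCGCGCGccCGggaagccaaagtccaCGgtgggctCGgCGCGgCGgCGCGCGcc
Cdk14, minus strand, chr5:5380202-5380501: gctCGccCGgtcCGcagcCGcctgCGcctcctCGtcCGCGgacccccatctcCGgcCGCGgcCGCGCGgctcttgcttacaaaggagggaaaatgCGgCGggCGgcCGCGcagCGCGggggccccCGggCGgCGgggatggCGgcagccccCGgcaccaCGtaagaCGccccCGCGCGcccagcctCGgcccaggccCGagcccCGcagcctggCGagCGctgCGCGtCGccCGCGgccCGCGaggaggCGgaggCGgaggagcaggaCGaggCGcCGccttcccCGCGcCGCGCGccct
Cers6 (Lass6), plus strand, chr2:68861191-68861490: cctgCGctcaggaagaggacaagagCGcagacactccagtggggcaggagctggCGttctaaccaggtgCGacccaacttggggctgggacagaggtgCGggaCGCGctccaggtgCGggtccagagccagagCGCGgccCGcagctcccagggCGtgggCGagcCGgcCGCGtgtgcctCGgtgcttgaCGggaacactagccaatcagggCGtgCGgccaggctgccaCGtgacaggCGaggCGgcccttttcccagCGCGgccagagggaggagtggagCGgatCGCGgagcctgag
Ctnna3, plus strand, start inside the gene, chr10:63820805-63821104: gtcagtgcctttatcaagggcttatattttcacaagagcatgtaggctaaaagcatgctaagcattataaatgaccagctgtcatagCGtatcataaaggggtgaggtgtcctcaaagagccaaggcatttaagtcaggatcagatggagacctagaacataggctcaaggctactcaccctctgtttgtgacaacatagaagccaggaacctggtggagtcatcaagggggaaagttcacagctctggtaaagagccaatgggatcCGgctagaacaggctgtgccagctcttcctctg
The Abcd3 window held 45 CG, that of Cdk14 53 and that of Cers6 28, where the median over all windows was 7. The window inside Ctnna3 held 2 CG, against 39 at the most upstream Ctnna3 start. The nearest Abcd3 peak began 358 bases upstream of its window, the nearest Cdk14 peak 1111 bases upstream, and the nearest Lass6 peak 4968 bases downstream. At Macrod2 the nearest peak was 79.3 kb into the gene from the most upstream start.

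Read totals over all regions ranged from 16284216 to 21512072 per library. The share of a library's reads that fell in peaks was 11.58% to 13.39% in the P1 libraries and 16.99% to 31.31% in the P14 libraries, the highest in P14 replicate 1. Because of this difference peaks were compared with each other, as read counts scaled to the reads in tested peaks of each library (CPM, counts per 1000000) with TMM scaling factors, and a log2 change is P14 over P1 on that scale. Peaks of the 6 genes held few reads, from 0 to 193 per library. A peak is called lower or higher where edgeR's quasi-likelihood test over all 96775 tested peaks gave an adjusted p under 0.05.

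Of the 131 peaks 118 entered the test, and 26 of them were called lower at P14, against a background of 2.42% of all tested peaks. None was called higher by edgeR or by DESeq2, where the background of edgeR was 0.105% and 1 peak, at Cdk14, had an unadjusted p under 0.05 in either tool. The called peaks were 6 of 15 tested at Macrod2, 5 of 40 at Gpc6, 3 of 26 at Ctnna3, 4 of 18 at Cdk14, 4 of 12 at Lass6 and 4 of 7 at Abcd3. Their mean level was 6.52 to 15.1 CPM at P1 and 1.15 to 5.21 CPM at P14. In 25 of the 26 every P1 library was above every P14 library, the exception being Lass6 peak 10, as in 99.1% of all peaks called lower. Peaks with few reads at P14 passed the filter on low counts only where their P1 libraries held enough reads. That order is therefore partly set by the filter. Over all 118 tested peaks every P1 library was above every P14 library in 38 (background 7.06%), and the reverse held for 2 (background 4.83%). The 13 peaks removed by the filter on low counts lay at Macrod2 (4), Ctnna3 (4), Cdk14 (3), Gpc6 (1) and Lass6 (1). With all 131 fitted and no filter, 26 were called lower (background 2.63%) and none higher (0.113%, 1 at an unadjusted p under 0.05). DESeq2 called 30 lower (background 2.68%, and 0.0909% higher). With only named peaks in the fit 25 were called lower (background 2.04%, and 0.151% higher).

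The number of calls changed with the libraries included and with the scaling. A fit without a library also has fewer replicates, and the effect of that alone was not tested. Without P14 replicate 1 edgeR called 0 of the 118 tested peaks of these genes (36 lower at an unadjusted p under 0.05), where it called 0 of all tested peaks too. Without P1 replicate 1 it called 5 (background 0.353% lower and 0.0455% higher), and without both of these libraries 6 (background 0.268% lower and 0.0372% higher). With no TMM factor 9 were called lower (background 0.723%, and 0.0765% higher). Without P1 replicate 2 it called 11 (background 0.935% lower and 0.0279% higher). Without P1 replicate 3 it called 9 (0.927% and 0.0093%), 8 of them among the 26 called in the main fit. Without P14 replicate 2 it called 13 (1.29% and 0.0506%), 12 of them among the 26, and without P14 replicate 3 it called 10 (1.45% and 0.0775%). A fit over all regions, and a fit with the share of reads in peaks as a covariate, called 0 at these genes (35 and 5 lower at an unadjusted p under 0.05). Over all regions or peaks tested they called 0 too. That share was at most 13.39% at P1 and at least 16.99% at P14, so the fit with the covariate cannot separate it well from age. Scaling to the reads between peaks moved the median log2 change of all tested peaks from -0.01 to 1.18. With it edgeR called 0 lower (background 0.0527%) and 1 higher, Cdk14 peak 2 (background 7.51%), and 9 were lower at an unadjusted p under 0.05. All backgrounds here are shares at an adjusted p under 0.05, and shares of all tested peaks at an unadjusted p are not given. In the fit scaled to the reads between peaks, as in each of the other alternatives run, all 26 still had a lower fitted value at P14.

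**Figure D1:**
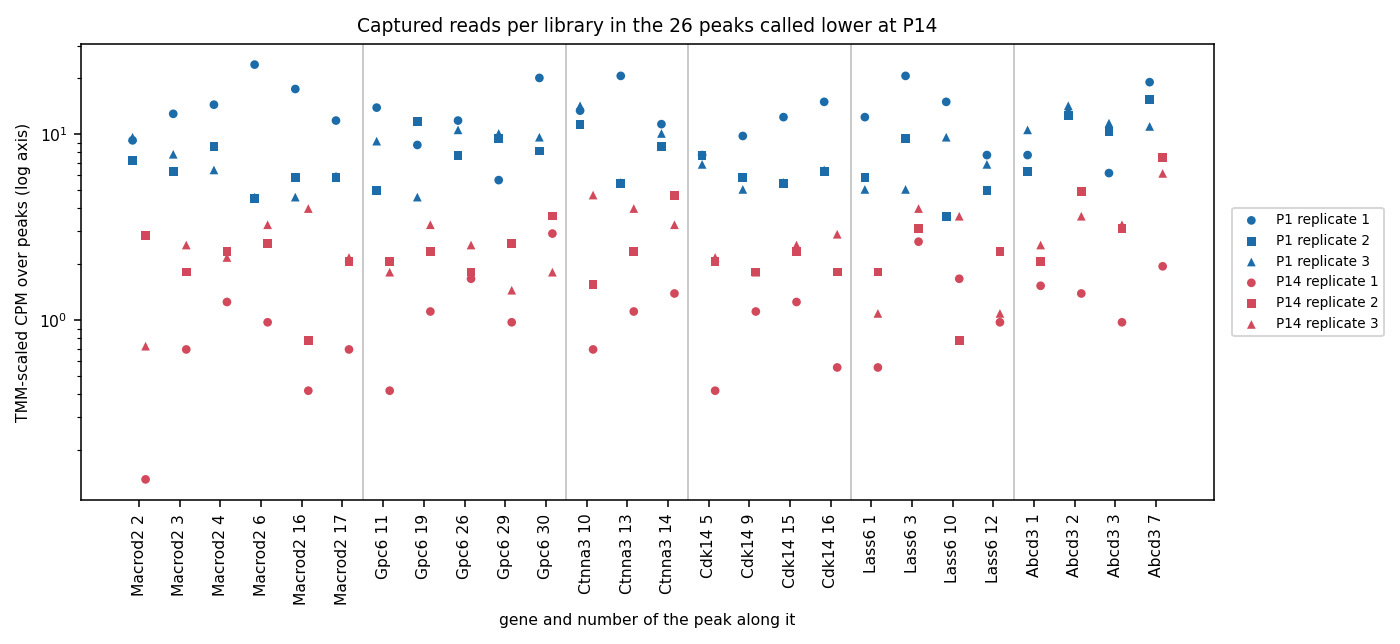
TMM-scaled CPM (log axis) in each of the 6 libraries for the 26 peaks called lower at P14, numbered along each gene; blue marks are P1, red marks P14, and the shape gives the replicate. Every P1 library lies above every P14 library in 25 of the 26, and P1 replicate 1 (blue circles) is the highest P1 library in 19.

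Ctnna3 encodes alpha-T-catenin, which links cadherins to actin at the intercalated discs of heart muscle cells. Its span is chr10:63430098-65003667 on the plus strand (ENSMUSG00000060843), and its peaks had a median gap of 20.4 kb between neighbours. Peak 10 (chr10:63649428-63650743), 220 kb into the gene, held 26, 25 and 31 reads in P1 replicates 1 to 3 and 5, 6 and 13 in P14 replicates 1 to 3, the order kept below. The P1 libraries were close to each other and all above the P14 libraries, at 13.0 ± 1.51 against 2.32 ± 2.11 CPM (SD, n = 3), a log2 change of -2.71 (SE 0.50). Peak 13 (chr10:63691088-63691766) held 40, 12 and 12 reads at P1 against 8, 9 and 11 at P14. Here P1 replicate 1 alone set much of the difference, and the log2 change of -2.2 (SE 0.57) was -1.25 without it. Peak 14 (chr10:63786261-63787064) held 22, 19 and 22 reads at P1 against 10, 18 and 9 at P14, with a log2 change of -1.76 (SE 0.45).

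A further 5 Ctnna3 peaks had log2 changes below -1 without being called. Peak 29 (chr10:64640782-64641339) stood just outside the threshold, with 28, 15 and 14 reads at P1, 15, 9 and 11 at P14 and an adjusted p of 0.0501 in edgeR's test. The peak just inside it, Cdk14 peak 15, had an adjusted p of 0.0493. The 3 called Ctnna3 peaks lay 220 to 357 kb from the most upstream start, in the 5′ part of the gene, where its peaks were also denser. Of the 5 below -1 that were not called, the first lay 362 kb from that start and the others 821 to 1211 kb. The peak nearest that start, peak 1 (chr10:63462359-63463281), held 25, 14 and 9 reads at P1 against 34, 30 and 20 at P14, and its CPM overlapped between ages (log2 change -0.25, SE 0.42). The widest, peak 16 (2060 bp), held 24, 72 and 59 reads at P1 against 90, 89 and 56 at P14 (log2 change -0.40, SE 0.31). The densest, peak 8, held 10, 42 and 23 reads against 85, 50 and 28, at 11.6 ± 6.96 and 11.6 ± 1.42 CPM (SD, n = 3). Peak 6 had the smallest p among Ctnna3 peaks with a higher value at P14, with 8, 2 and 8 reads against 21, 26 and 10 (log2 change 0.60, SE 0.58). Peak 23 is shared with Lrrtm3, a synaptic adhesion gene nested in Ctnna3. It held 21, 15 and 9 reads at P1 against 5, 9 and 8 at P14 and was removed by the filter.

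Gpc6 encodes a glypican, a heparan sulfate proteoglycan anchored to the cell surface that binds growth factors and morphogens. It had the most peaks, 41, in its span at chr14:116924920-117979529 (ENSMUSG00000058571). Peak 11 (chr14:117351112-117351843) held 27, 11 and 20 reads at P1 against 3, 8 and 5 at P14, at 9.35 ± 4.47 and 1.43 ± 0.890 CPM (SD, n = 3), the largest change at this gene (log2 change -2.83, SE 0.59). Peak 26 (chr14:117794370-117795096) held 23, 17 and 23 reads at P1 against 12, 7 and 7 at P14 (log2 change -2.35, SE 0.44). It had the smallest p at Gpc6, and its libraries varied little within each age, at 10.0 ± 2.13 and 2.01 ± 0.463 CPM (SD, n = 3).

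Called peaks 29 and 30 were neighbours, 12.6 kb apart. Peak 29 (chr14:117875023-117875715) held 11, 21 and 22 reads at P1 against 7, 10 and 4 at P14 (log2 change -2.38, SE 0.51). Peak 30 (chr14:117888284-117889246) held 39, 18 and 21 reads against 21, 14 and 5 (log2 change -2.11, SE 0.42). The remaining called peak, peak 19 (chr14:117657671-117658377), held 17, 26 and 10 reads against 8, 9 and 9, and P1 replicate 2 was its highest library (log2 change -2.01, SE 0.52). The median log2 change of the other 35 tested Gpc6 peaks was -0.12, and 5 of them were below -1. The widest peak of the 6 genes, Gpc6 peak 25 (chr14:117783951-117786322, 2372 bp), held 84, 68 and 79 reads at P1 against 193, 100 and 76 at P14. Its CPM was 36.7 ± 6.29 at P1 and 26.8 ± 0.794 at P14 (SD, n = 3) without overlap, yet it was not called (log2 change -0.45, SE 0.22). It lies 8.05 kb from called peak 26. The densest, peak 39, held 21, 38 and 17 reads against 94, 33 and 30 (log2 change -0.12, SE 0.32) and covers the microRNA gene Mir6239. Peak 38 had the smallest p for a higher value, with 13, 13 and 23 reads against 70, 35 and 35 (log2 change 0.42, SE 0.33).

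**Figure D2:**
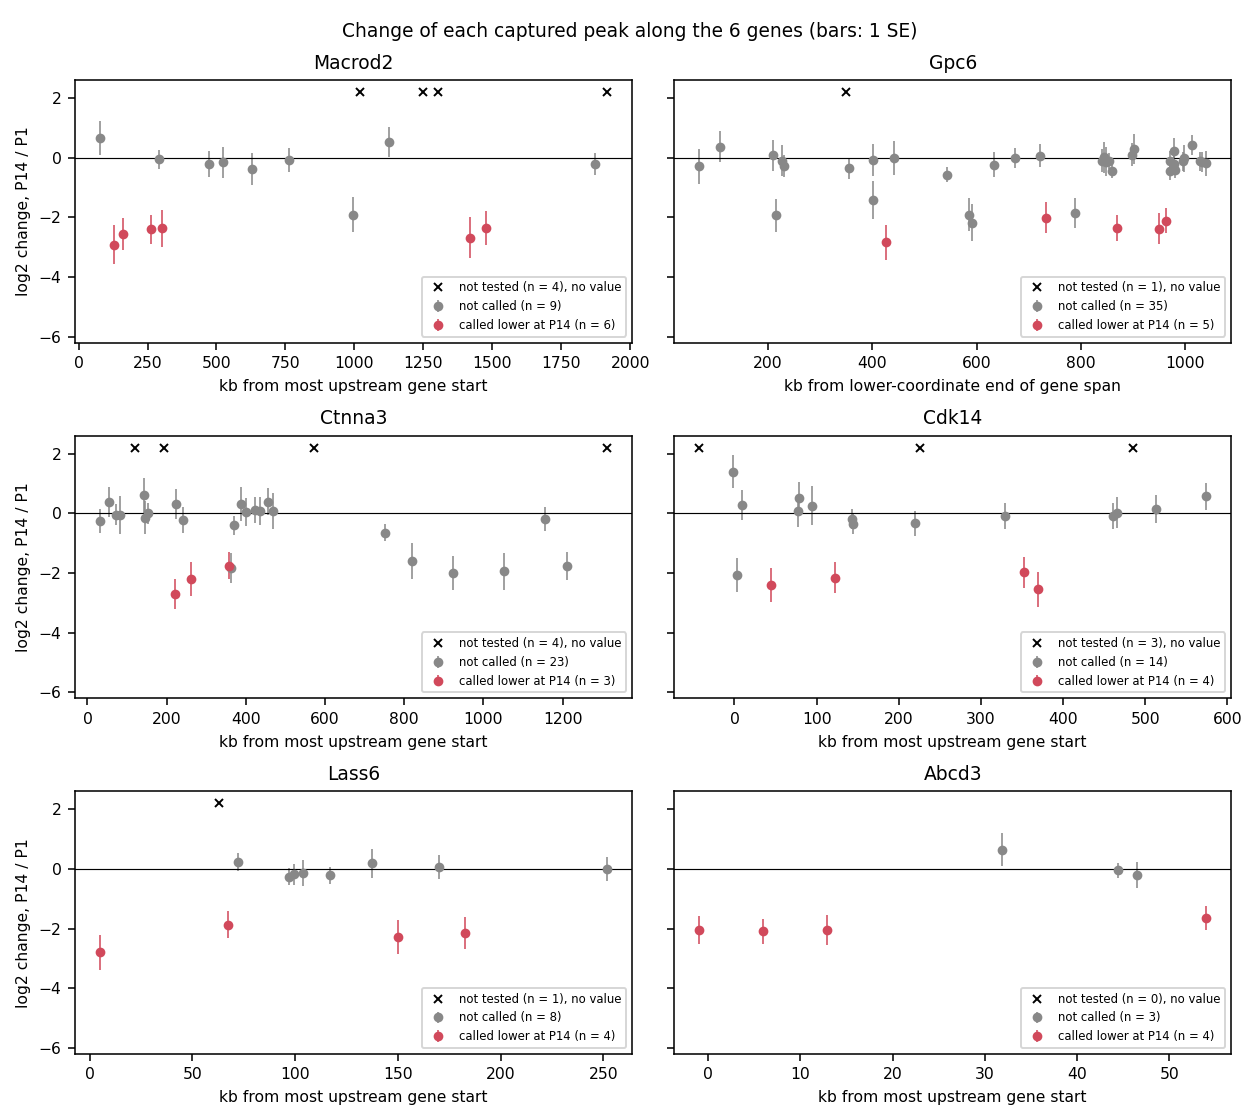
Log2 change of each tested peak (P14 over P1, CPM within peaks, bars 1 SE) against its distance in kb from the most upstream RefSeq start, or for Gpc6 from the lower-coordinate end of its span; red points are the 26 called lower at P14, grey points the 92 not called, and crosses mark untested peaks without a value. Called peaks lie among peaks near 0 in every gene, and scaled to the reads between peaks the grey points had a median of 1.08 and the red ones of -1.12.

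Cdk14 encodes a cyclin-dependent kinase that acts with cyclin Y and phosphorylates the Wnt co-receptor Lrp6. Its span is chr5:4803384-5380251 on the minus strand (ENSMUSG00000028926). Peak 16 (chr5:5010262-5011018), 370 kb into the gene, held 29, 14 and 14 reads at P1 against 4, 7 and 8 at P14, at 9.23 ± 4.94 and 1.76 ± 1.17 CPM (SD, n = 3), with a log2 change of -2.55 (SE 0.58). Peak 5 (chr5:5335657-5336418) was the most even at P1, with 15, 17 and 15 reads against 3, 8 and 6 (log2 change -2.41, SE 0.58). Peak 9 (chr5:5257487-5258128) held 19, 13 and 11 reads at P1 against 8, 7 and 5 at P14 (log2 change -2.16, SE 0.53). Peak 15 (chr5:5027356-5028069), 16.3 kb from peak 16, held 24, 12 and 12 reads against 9, 9 and 7 (log2 change -1.98, SE 0.52).

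The peak nearest the Cdk14 start went the other way. Peak 2 (chr5:5381613-5382585), 1.85 kb upstream of the start and outside the RefSeq span, held 2, 5 and 6 reads at P1 against 52, 13 and 15 at P14. All P14 libraries were above all P1 libraries, at 5.34 ± 1.93 against 2.01 ± 0.887 CPM (SD, n = 3), with a log2 change of 1.40 (SE 0.55) that was not called. It was the highest log2 change of the 118 tested peaks, and scaled to the reads between peaks it was 2.67 and was called higher. Peak 3, 3.4 kb inside the gene, held 33, 12 and 11 reads at P1 against 7, 12 and 8 at P14 (log2 change -2.06, SE 0.57, not called). The widest peak, peak 11, held 25, 23 and 13 reads against 55, 32 and 19 (log2 change -0.34, SE 0.34). The densest, peak 12, held 22, 14 and 20 reads against 24, 44 and 20 (log2 change -0.33, SE 0.42).

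Lass6 encodes a ceramide synthase of the endoplasmic reticulum, which joins a fatty acyl-CoA to a sphingoid base. The span is chr2:68861145-69114284 on the plus strand (ENSMUSG00000027035), and all 13 peaks lay inside it. Its first peak (chr2:68866459-68867045), 5.31 kb from the start, held 24, 13 and 11 reads at P1 against 4, 7 and 3 at P14. That was 7.76 ± 4.0 against 1.15 ± 0.632 CPM (SD, n = 3), the lowest P14 level among the 26 called peaks, with a log2 change of -2.80 (SE 0.59). Peak 3 (chr2:68928225-68929003) held 40, 21 and 11 reads at P1 against 19, 12 and 11 at P14. P1 replicate 1 was far above the others there, and the log2 change of -1.87 (SE 0.46) was -1.18 without it. Peak 10 (chr2:69011444-69011920) held 29, 8 and 21 reads against 12, 3 and 10 (log2 change -2.28, SE 0.57). Its P1 replicate 2 and P14 replicate 3 came to nearly the same CPM, so the ages overlapped. Peak 12 (chr2:69043814-69044283) held 15, 11 and 15 reads against 7, 9 and 3 (log2 change -2.16, SE 0.54).

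No called Lass6 peak had a called peak as its neighbour. Peak 4 was the densest of the gene and had its smallest p among higher values. It lay 4.11 kb from called peak 3 and held 16, 22 and 21 reads at P1 against 77, 33 and 38 at P14 (log2 change 0.23, SE 0.30). The widest, peak 5 (1648 bp), held 50, 28 and 32 reads against 104, 60 and 39 (log2 change -0.25, SE 0.28). The 8 tested peaks not called ran from -0.25 to 0.23 in log2 change.

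Abcd3 encodes a transporter of the peroxisomal membrane that brings fatty acyl-CoA into peroxisomes for oxidation. The gene is compact and on the minus strand (chr3:121758904-121815302, ENSMUSG00000028127), with 12.4 peaks per 100 kb, where Macrod2 had 0.951. All 7 peaks were tested. The first 3 from the 5′ end were all called. Peak 1 (chr3:121815911-121816597), just upstream of the CpG-rich window printed above, held 15, 14 and 23 reads at P1 against 11, 8 and 7 at P14. It stood at 8.20 ± 2.16 CPM at P1 and 2.05 ± 0.503 at P14 (SD, n = 3), with a log2 change of -2.04 (SE 0.47). Peak 2 (chr3:121808766-121809929) held 25, 28 and 31 reads against 10, 19 and 10, at 13.2 ± 0.854 and 3.31 ± 1.79 CPM (SD, n = 3), with a log2 change of -2.09 (SE 0.41). Peak 3 (chr3:121801947-121802822) held 12, 23 and 25 reads against 7, 12 and 9 (log2 change -2.05, SE 0.50).

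The other called Abcd3 peak lay at the 3′ end. Peak 7 (chr3:121760772-121761859) had the highest P1 level of the 26, with 37, 34 and 24 reads at P1 against 14, 29 and 17 at P14. At 15.1 ± 4.02 against 5.21 ± 2.90 CPM (SD, n = 3) it also had the smallest called change (log2 change -1.63, SE 0.41). The 3 peaks between them were not called. Peak 5, the widest and densest, held 36, 31 and 36 reads at P1 against 100, 70 and 44 at P14, which was level on the CPM scale (16.3 ± 2.27 and 16 ± 2.12 CPM, SD, n = 3). Peak 4 held 3, 6 and 7 reads against 19, 15 and 16 (log2 change 0.64, SE 0.56), and peak 6 held 6, 16 and 19 against 51, 16 and 14 (log2 change -0.20, SE 0.43).

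Macrod2 encodes a macrodomain enzyme that removes ADP-ribose from proteins, and it is among the longest mouse genes (chr2:140395303-142392966, plus strand, ENSMUSG00000068205). Its 19 peaks were sparse, with a median gap of 78.4 kb and a largest gap of 397 kb. Peak 2 (chr2:140523301-140524214) held 18, 16 and 21 reads at P1 against 1, 11 and 2 at P14, at 8.71 ± 1.30 and 1.24 ± 1.43 CPM (SD, n = 3). Its log2 change of -2.92 (SE 0.65) was the largest decrease of the 118, and it became -4.61 without P14 replicate 2, the library with 11 reads. Peak 3 (chr2:140555895-140556966) held 25, 14 and 17 reads against 5, 7 and 7 (log2 change -2.54, SE 0.54). Peak 4 (chr2:140658859-140659569) held 28, 19 and 14 reads against 9, 9 and 6 (log2 change -2.39, SE 0.48). It had the smallest p of the gene and also lies in the span of Flrt3, a transmembrane adhesion gene nested in Macrod2 (chr2:140658198-140671476).

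P1 replicate 1 stood above the other P1 libraries in most of the Macrod2 peaks that were called. Peak 6 (chr2:140698907-140699596) held 46, 10 and 10 reads at P1 against 7, 10 and 9 at P14, and its log2 change of -2.36 (SE 0.62) fell to -1.10 without P1 replicate 1. Peak 16 (chr2:141815201-141815900) held 34, 13 and 10 reads against 3, 3 and 11 (log2 change -2.67, SE 0.69). Peak 17 (chr2:141870749-141871460) held 23, 13 and 13 reads against 5, 8 and 6 (log2 change -2.36, SE 0.56). With P1 replicate 1 left out edgeR called 0 of the 6. Peak 5, the widest and densest of the gene, lay between called peaks 4 and 6 and held 34, 18 and 17 reads at P1 against 86, 41 and 24 at P14 (log2 change -0.06, SE 0.33). The peak nearest the start, peak 1 (chr2:140474545-140474891), held 2, 7 and 6 reads against 24, 18 and 9. There all P14 libraries were above all P1 libraries, at 3.75 ± 0.792 against 2.31 ± 1.13 CPM (SD, n = 3), with a log2 change of 0.67 (SE 0.56).

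Summed over all peaks of a gene, the P1 libraries were above the P14 libraries in each of the 6 genes on the scale of reads in peaks. The genes were chosen for peaks higher at P1, and the share of other genes with this order was not counted. Col19a1, a gene of similar profile named below with 0 of 10 tested peaks called, had it too. Its sums were 92.7, 82.2 and 83.5 CPM at P1 and 61.7, 69.5 and 73.1 CPM at P14. For Macrod2 the sums were 203, 99.8 and 99.6 CPM at P1 and 51.2, 68.7 and 73.8 CPM at P14. P1 replicate 1 thus held about as much as the other P1 libraries together. The Gpc6 sums were 398, 339 and 338 CPM against 230, 269.9 and 280.2 CPM. For Abcd3 they were 69.0, 68.6 and 75.7 CPM against 29.5, 43.8 and 42.4 CPM. The log2 ratio of the mean sums ran from -1.06 at Macrod2 and -0.88 at Abcd3 to -0.43 at Lass6, with -0.55 at Ctnna3, -0.47 at Cdk14 and -0.46 at Gpc6. Relative to the reads between peaks all 6 signs turned, with 0.10 at Macrod2, 0.22 at Abcd3, 0.57 at Ctnna3, 0.63 at Cdk14, 0.70 at Gpc6 and 0.74 at Lass6. On that scale the ages overlapped at Macrod2 and Abcd3.

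Within each gene the tested peaks fell into separate ranges of change. Of the 118, 38 had a log2 change of -1.42 or lower and 80 of -0.65 or higher, with none between, an interval chosen after its values were seen. The same dip was present over all tested peaks, of which 0.868% lay in that interval. The share at or below -1.42 was 32.2% in the 6 genes, which were chosen for such peaks, and 4.57% over all tested peaks. The 38 comprised the 26 called peaks and 12 others, 5 each at Gpc6 and Ctnna3 and 1 each at Macrod2 and Cdk14.

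**Figure D3:**
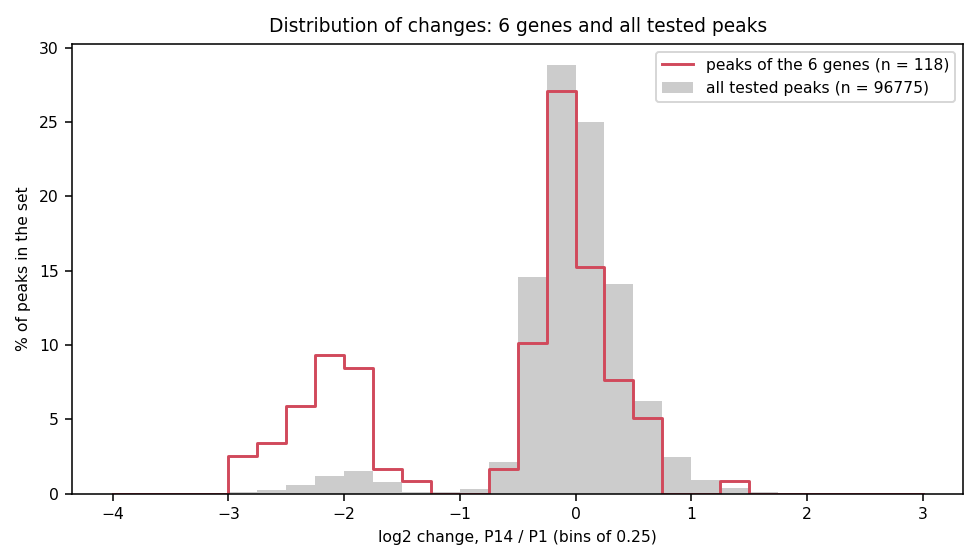
Share of peaks (%) in bins of 0.25 of the log2 change (P14 over P1, CPM within peaks) for the 118 tested peaks of the 6 genes (red line) and all 96775 tested peaks (grey bars). Both have a main group near 0 and a smaller group near -2 with few peaks between them.

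Reads in a peak can be set against the stretches on either side of it in the same library, which needs no scaling between libraries. At the 26 called peaks the read density relative to those stretches stood at medians of 3.60, 2.42 and 2.73 in P1 replicates 1 to 3 and of 1.42, 1.25 and 1.24 in P14 replicates 1 to 3. The same reads that chose these peaks enter this ratio, so its fall in them is a description. Averaged over the libraries of an age, it was lower at P14 in 26 of 26 called peaks, as in 99.0% of all peaks called lower in the series. In 7 of the 26 (26.9%) it was under 1 at P14, against 9.06% of all peaks called lower and 0.529% of all tested peaks. The 92 peaks not called went from medians of 1.68, 2.12 and 1.90 at P1 to 5.23, 3.07 and 2.91 at P14, with 11 of 92 lower at P14. Over all peaks tested the medians of this mean were 1.97 (P1) and 3.54 (P14), with 5.36% of peaks lower at P14. At P14 the called peaks reached at most 2.08, at Macrod2 peak 4. Set against the median density of all stretches of a library in place of the adjoining ones, the medians were 3.40 at P1 and 1.39 at P14 in called peaks and 2.41 and 4.03 in the others.

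**Figure D4:**
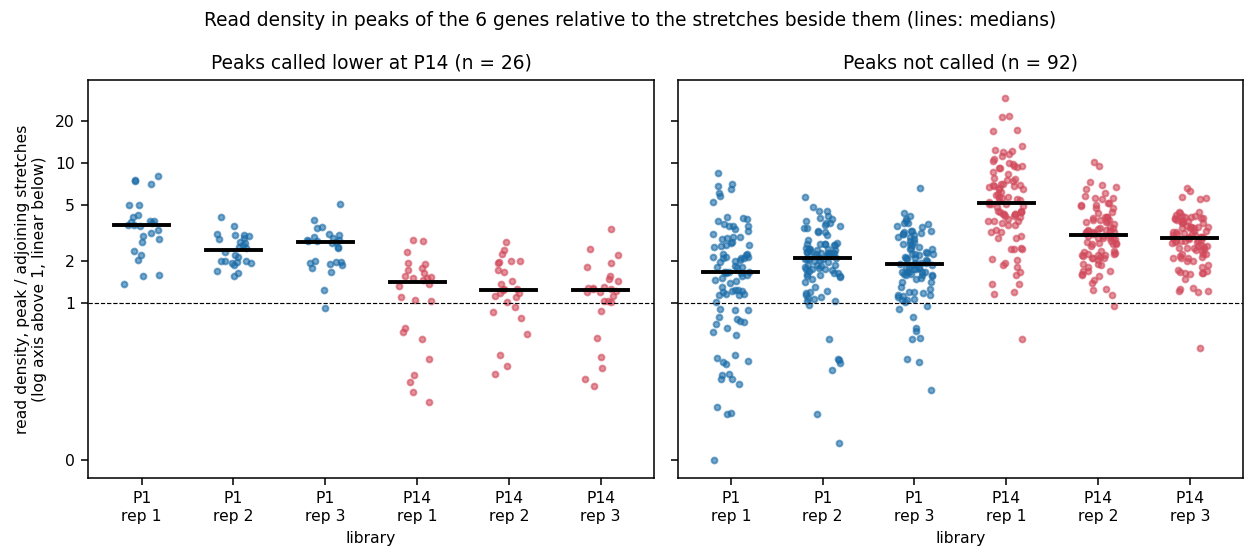
Read density of each peak divided by that of the stretches on both sides, per library, for the 26 peaks called lower at P14 (left) and the 92 not called (right); points are peaks, black bars medians, the axis is logarithmic above 1 and linear below, and the dashed line marks equal density. Called peaks have medians of 2.42 to 3.60 at P1 and 1.24 to 1.42 at P14, and peaks not called have higher medians at P14 than at P1.

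The width of a peak was not used in choosing the genes, but borders of enriched regions may depend on the same reads. The spacing of calls and the order of the libraries come from the same counts as the choice of the genes and are description only. The called peaks were 470 to 1316 bp wide, with a median of 720.5 bp, and the 92 not called had a median of 741 bp. All tested peaks had a median width of 869 bp, and all peaks called lower of 732 bp. Of the 26 called peaks 14 had a called peak as their next neighbour, 5 of them at Macrod2, 3 at Abcd3 and 2 each at Gpc6, Ctnna3 and Cdk14. The same share over all peaks called lower was not counted, and genes chosen for several calls favour such neighbours. The distance between called neighbours still left long stretches, such as 31.7 kb between Macrod2 peaks 2 and 3. P1 replicate 1 was the highest P1 library in 19 of the 26 called peaks (73.1%), in 40 of the 92 not called (43.5%) and in 82.4% of all peaks called lower in the series. P14 replicate 1 was the lowest P14 library in 24 of the 26 (92.3%), in 60.9% of the 92 and in 87.0% of all peaks called lower. The part of these libraries in the calls, beyond the fits without them, was not tested.

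Among other long genes these shares were uncommon, as the choice of the genes requires. There were 461 other genes with a span of at least 200 kb and at least 10 tested peaks, and 279 of their 11456 tested peaks (2.44%) were called lower, near the 2.42% of all tested peaks. No peak was called lower in 280 of them, and 23 had 3 or more. Tcf4, a gene of an E-protein transcription factor, had 13 of 23 and Ryr2, the cardiac calcium release channel, 9 of 17. These were the only others of the 461 with as many calls as Macrod2. The share of tested peaks called lower was as high as at Macrod2 (40%) in 2 others, as at Lass6 (33.3%) in 2, as at Cdk14 (22.2%) in 9, as at Gpc6 (12.5%) in 34 and as at Ctnna3 (11.5%) in 37. Abcd3, with 7 tested peaks and 56.4 kb, does not belong to this size class.

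Genes with the most similar profile were sought among 1623 others with at least 10 tested peaks, by Pearson's r over the 6 libraries between the log2 summed CPM of a gene and the mean of the 5 members with that many peaks. The highest r was at Syt1 (0.992), a synaptic vesicle calcium sensor gene, and at Ptprd (0.991), a receptor phosphatase gene. Dnahc11 (0.987), Sorbs2 (0.986) and Col19a1 (0.986) followed. Their sums shared the pattern of a high P1 replicate 1 and a low P14 replicate 1, as at Ptprd, with 131, 81.3 and 80.7 CPM at P1 and 43.8, 59.1 and 68.4 CPM at P14. All genes share the same 6 libraries and their scaling, so r describes the libraries as well as the genes. Each of the 5 members correlated with the mean of the other 4 at r from 0.931 (Ctnna3) to 0.987 (Gpc6). All of them were chosen for peaks higher at P1, so a shared profile follows in part from that choice.

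Relatives and partners of these genes were counted against the 2.42% of all tested peaks called lower. Of 19 tested peaks at 3 other glypican genes 1 (5.26%) was called lower, at Gpc5, which neighbours Gpc6 on chromosome 14 and is also very long. It (chr14:115541759-115542458) held 25, 15 and 17 reads at P1 against 8, 11 and 9 at P14 (log2 change -2.02, SE 0.49). The median log2 change of the 19 was -0.19, against -0.01 over all tested peaks. Of 63 peaks at 10 catenin and adherens junction genes 2 (3.17%) were called lower, both at Cdh2, the N-cadherin of heart muscle. They held 33, 18 and 25 reads against 19, 12 and 12 (log2 change -1.89, SE 0.39), and 16, 21 and 22 against 16, 13 and 6 (log2 change -1.84, SE 0.42). None of the 5 peaks at Ctnna2, the long neuronal alpha-catenin gene, and none of the 29 at Ctnnd2 was called. Among relatives and partners of Cdk14, 1 of 21 peaks (4.76%) at 5 genes was called, at Cdk17 (chr10:93221088-93221641), with 30, 12 and 14 reads at P1 against 0, 9 and 6 at P14 (log2 change -2.81, SE 0.73). DESeq2 called none of the 21. Ccny and Lrp6 had 2 and 3 tested peaks, none of them called.

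For the metabolic and ADP-ribose lists edgeR and DESeq2 called 0 peaks in either direction. At an unadjusted p under 0.05 edgeR had 0 ceramide synthase peaks, 0 peroxisomal peaks and, for ADP-ribose, 1 lower and 3 higher. With backgrounds of 2.42% lower and 0.105% higher, lists of this size hold few calls or none, and nothing is read from the absence. Among other ceramide synthases, 4 genes with 11 tested peaks had a median log2 change of 0.24. The smallest p was at a peak shared by Lass1 and Gdf1, with 14, 14 and 16 reads at P1 against 69, 40 and 33 at P14 (log2 change 0.60, SE 0.32). Among peroxisomal transporters and beta-oxidation genes, 34 peaks at 9 genes had a median of 0.01. The smallest p there was at Hsd17b4, an enzyme of peroxisomal beta-oxidation, with 28, 40 and 28 reads against 70, 44 and 33 (log2 change -0.47, SE 0.27). Abcd2 and Abcd4, the relatives of Abcd3 with tested peaks, had 2 and 4. Among enzymes that add or remove ADP-ribose, 50 peaks at 10 genes had a median of -0.01. The smallest p was at a peak shared by Macrod1 and Flrt1 (chr19:7094766-7097602), with 51, 75 and 82 reads at P1 against 508, 173 and 131 at P14. All P14 libraries were above all P1 libraries there, at 54.3 ± 14.2 against 32.6 ± 5.79 CPM (SD, n = 3), without passing the test (log2 change 0.74, SE 0.24). Of the genes nested in members, Lrrtm3 had no tested peak, and peaks in the span of Flrt3 were assigned to Macrod2.

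**Figure D5:**
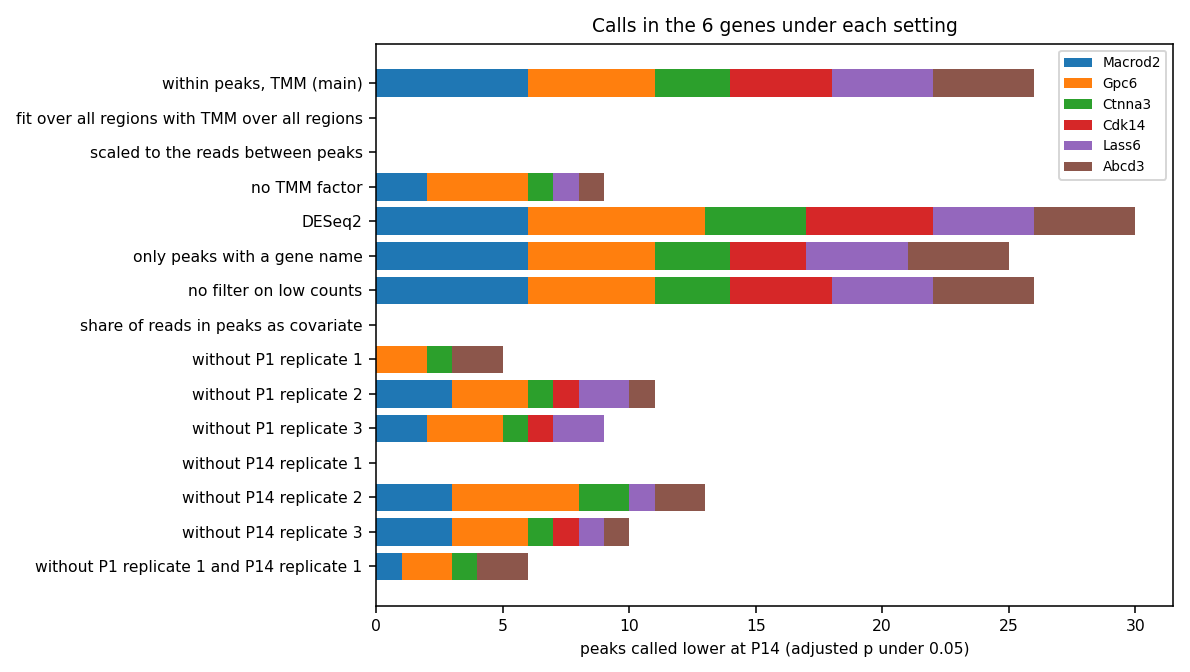
Number of peaks called lower at P14 (adjusted p under 0.05) in the 6 genes, stacked by gene, in the main fit and in 14 alternatives to it. The count is 26 in the main fit, 25 to 30 with DESeq2, with named peaks only or with no filter, and 0 in the fit over all regions, scaled to the reads between peaks, with the share of reads in peaks as a covariate or without P14 replicate 1.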

How the data were processed

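Read counts per region for 6 libraries were deposited by the authors as whole numbers without scaling. Among the software in the submitters' processing notes are MACS, BWA and edgeR 3.2.4, with build GRCm38. How peaks were called or pooled and how duplicates were handled was not stated there. Starts in the table count from 0 and are printed here from 1. Of 221524 lines 7567 repeat a region for a further gene, leaving 213957 regions. Peaks were inferred from shared borders, gene names and, for 17551 regions, a density above 94 reads per kb over all libraries (94.5% right where borders or names settled the type), giving 101256 peaks. All regions of the 6 genes carry a gene name. No region has a mean under 10 reads per library.

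The edgeR 4.0.16 quasi-likelihood F test (R 4.3.3, TMM factors over peaks, age as the only term) was run on 96775 peaks that passed filterByExpr at whole-library depth, with Benjamini-Hochberg adjustment over all of them. The fit was tested on simulated data of this depth: every changed peak it called had the right sign, but it missed most of the peaks given the smaller change and many of those given the larger, so a peak not called may still differ. The standard error is the size of the log2 change divided by the square root of F. DESeq2 1.42.0, other scalings, filters, covariates and left-out libraries were the alternatives. The genes, lists and tests were chosen with earlier results of these data known. Peaks with values per library followed 1 rule: called peaks, and per gene the smallest p in each direction, the peak nearest the start, the widest and the densest, and those next to the threshold. A few others were named after their values were seen: Gpc6 29 and 30 as neighbours, Ctnna3 peak 23, Cdk14 peak 3 and Abcd3 peak 6. Promoter sequences and gene spans are from RefSeq (GRCm38.p6). No genome sequence was used here, so the sequence of peaks is not shown.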

Additional observations from a re-analysis of the deposited data

How the results depend on the processing

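The 26 peaks called lower at P14 had a negative log2 change in each of the 15 alternatives, but the number of calls moved. Over all regions with TMM over all regions, scaled to the reads between peaks, with the share of reads in peaks as a covariate and with the replicate number as a block, edgeR called 0 of the peaks of these genes lower (35, 9, 5 and 41 had an unadjusted p under 0.05), where DESeq2 called 30. With no TMM factor there were 9, and without P1 replicate 1 and P14 replicate 1 together 6. Leaving out single libraries gave 0 to 13 lower. Scaled to the reads between peaks, 1 was called higher. The share of reads in peaks was higher in every P14 library than in every P1 library, so the fit with that covariate cannot separate it well from age. Over all tested peaks 2341 were lower and 102 higher. These became 0 and 0 over all regions, 51 and 7272 scaled to the reads between peaks, 700 lower with no TMM factor, 1349 lower with named peaks only, 0 and 0 with the covariate or the replicate block, and 259 and 36 without both replicates 1. Single libraries left out gave 0 to 1405 lower and 0 to 75 higher.

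The median log2 change of the 118 tested peaks was -0.20, 0.53 over all regions, 0.98 scaled to the reads between peaks and -0.048 with no TMM factor, and from -0.30 to -0.16 without single libraries. No pairing of libraries by replicate number was seen over all tested peaks. Deviations from the age means correlated at -0.049, -0.046 and 0.02 for replicates 1, 2 and 3. With few reads per peak such deviations hold much counting error, so these values do not show that the libraries were unpaired. The called peaks held a median of 19.2 reads per library at P1 and 8.17 at P14, so counting error limits each value, and 3 libraries per age limit every spread. The causes of these moves were not tested.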
